A study of Mus with 35 samples.

Results

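This comparison set brain RNA of 8-week-old P209L mice that had received an antisense oligonucleotide (ASO) against Hnrnph2 beside that of 8-week-old wild-type (WT) mice that had received a control ASO, and asked which genes still differed after treatment. The members were fixed by the sample titles: 3 treated P209L libraries and 3 control WT libraries, 6 of the 35 in the series. All 12 libraries of that age entered 1 fit, and 16516 of 55573 genes were tested, those averaging 1 TPM (a length-scaled share of each library's RNA) or more. All mice were male C57BL/6J, the P209L mice being hemizygous and the WT mice their littermates, and each received 1 bolus of 30 µg of ASO into the cerebral ventricles at postnatal day 2 to 4. The other 8-week groups were P209L with the control ASO, called untreated below, and WT with the Hnrnph2 ASO, with 3 libraries each. The cohorts of 3 weeks hold treated P209L mice (2 libraries) and mice with another substitution, R206W (3 libraries), each with its own 3 control WT libraries. No group received no ASO at all.

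HNRNPH2 belongs to the hnRNP H/F proteins, which bind RNA and take part in its splicing and other steps of its processing. The P209L and R206W substitutions lie in the stretch of the protein that the transportins, a class of nuclear import receptors, recognise. The gene is X-linked, so a hemizygous male makes the mutant protein alone. An ASO that recruits RNase H has its target RNA cut, whether the RNA is mutant or wild type. Hnrnph1 encodes the closest relative of HNRNPH2.

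The labels call the tissue brain, the series' design text speaks of whole brains and the extraction protocol of dissected cortex. Markers of regions outside the cortex were present in the 6 libraries. The Purkinje cell gene Pcp2 ranged from 165 to 319 TPM in control WT, the cerebellar granule cell gene Gabra6 from 56.5 to 82.0 and the choroid plexus gene Ttr from 735 to 1083. Between 16277 and 16547 genes reached 1 TPM in a library and the 50 most abundant took 28.5% to 33.8% of the TPM. Control WT replicate 2 stood apart, with the fewest genes, the highest share in the top 50 and a score of -31.3 on a first principal component that held 20.9% of the variance. In bulk RNA, fewer cells of a type and less RNA per cell cannot be told apart.

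Hnrnph2 was the 1 gene called between treated P209L and control WT mice, at an adjusted p under 0.05 (0.00605% of the genes tested). Its level (mm10, X:134601179-134607060) was 109, 88.2 and 117 TPM in the control WT libraries and 11.6, 6.95 and 7.14 TPM in the treated P209L libraries. The groups lay far apart, at 105 ± 14.8 and 8.57 ± 2.65 TPM (SD, n = 3), so that treated P209L brain held 8.19% of the control WT level. The log2 fold change on log2(TPM + 1), the scale of all fold changes here, was -3.49 (SE 0.209, 95% interval -3.95 to -3.03, adjusted p = 6.33e-05). The exact two-sided permutation p was 0.1, the smallest that 3 libraries against 3 can give.

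The target was as high in untreated P209L mice as in control WT, at 94.9, 104 and 97.7 TPM. In WT mice given the Hnrnph2 ASO it was at 18.5, 20.6 and 11.96 TPM, above all 3 treated P209L values. The log2 difference of treated P209L from these WT mice was -0.91 (95% interval -1.37 to -0.45, unadjusted p = 0.00112), which did not pass the adjustment over all genes (adjusted p = 0.998). At 3 weeks the log2 fold change against control WT was -2.89 in treated P209L and -2.22 in treated R206W mice. The difference of the 8-week value from the R206W value was -1.27 (95% interval -1.72 to -0.83, adjusted p = 0.0503). This difference passed the threshold under 5 of 16 alternatives: a pseudocount of 0.1, scaling by median ratios, and without control WT replicate 2, treated P209L replicate 1 or control WT replicate 1 of the R206W cohort. Without treated P209L replicate 2 the 1 gene called was Zhx2 instead. As fitted, limma called no gene in that comparison (0% of genes), and 1039 (6.28%) had an unadjusted p under 0.05.

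**Figure D1:**
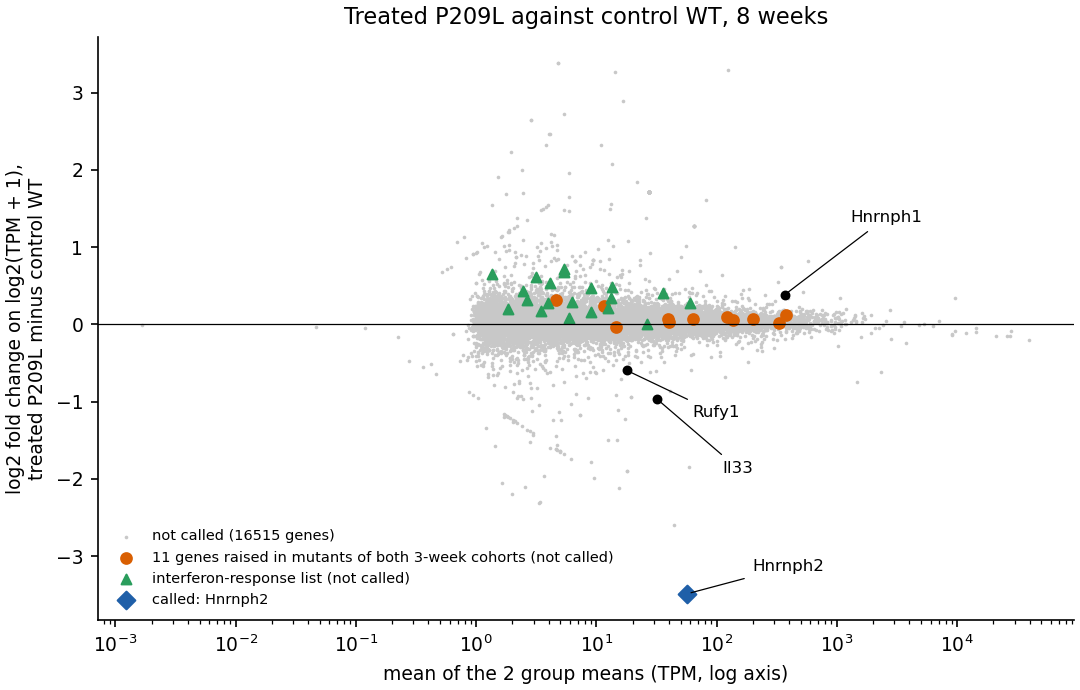
Each point is 1 of 16516 genes: the x axis gives the mean of the treated P209L and control WT group means in TPM (log axis) and the y axis the log2 fold change, treated P209L minus control WT, on log2(TPM + 1). Hnrnph2, at -3.49, is the only gene called, and the 11 genes raised in mutants at 3 weeks (circles) lie between -0.03 and 0.31.

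The other members of the family were measured with less distance between the groups. Hnrnph1 (11:50375257-50386528) was at 333, 328 and 299 TPM in control WT and at 426, 424 and 403 TPM in treated P209L. Every treated library was above every control WT library, but the log2 fold change of 0.39 (SE 0.0672, 95% interval 0.24 to 0.53) did not pass (adjusted p = 0.184). WT mice with the Hnrnph2 ASO had 421, 429 and 385 TPM, a range that overlaps that of treated P209L, while untreated P209L mice had 361, 337 and 318 TPM. In the separate 3-week cohorts Hnrnph1 differed from control WT by 0.42 in treated P209L and by 0.19 in treated R206W, neither of them called (0.0121% and 0.0182% of genes were). Hnrnpf, Hnrnph3 and Grsf1, the more distant relatives, had log2 fold changes of 0.01 (95% interval -0.18 to 0.20), -0.05 (-0.24 to 0.15) and 0.06 (-0.21 to 0.32).

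Rufy1 (11:50389286-50431274), which encodes an adaptor of endosomes, lies beside Hnrnph1, with 2758 bases between the genes. Strand was not considered, so this is no distance between their starts. Its level was 22.1, 21.97 and 20.6 TPM in control WT and 15.7, 13.5 and 12.8 TPM in treated P209L. All treated libraries were lower, with a log2 fold change of -0.59 (SE 0.0935, 95% interval -0.80 to -0.39) that did not pass (adjusted p = 0.182). Against untreated P209L, at 23.4, 20.9 and 22.3 TPM, Rufy1 fell by 0.63 on the log2 scale (adjusted p = 0.0356). WT mice with the Hnrnph2 ASO had 16.6, 16.9 and 13.8 TPM, and the 3-week cohorts had differences of -0.57 (P209L) and -0.46 (R206W). Rufy1 was thus low in both genotypes that received the Hnrnph2 ASO, as Hnrnph1 was high in both.

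The central question was how near treatment brought the genes that the mutation raises to the WT level. To choose them on other libraries, the genes called in both 3-week comparisons of untreated mutants with WT, for P209L and for R206W, were taken (0.133% of genes in each). There were 11, all higher in the mutants: Ppp1r9b, Ddn, Ilrun, Shank1, Tnpo2, Brsk1, Fbxl19, Foxo4, Paip2b, Adra1b and Gm31166. In untreated P209L mice at 8 weeks 9 of the 11 were called against control WT (0.17% of all genes were), with a median log2 fold change of 0.80 and levels of 144% to 384% of control WT. In treated P209L mice none was called, none had an unadjusted p under 0.05 and in none did the groups stand apart. The median was 0.07, beside 0.03 over all genes, and the levels were 97.5% to 126% of control WT. The treated and untreated comparisons share the control WT libraries, so their values are given side by side and no agreement between them is drawn.

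Among the 11, Ppp1r9b, Ddn and Shank1 act in dendrites and spines. Ppp1r9b (11:94991212-95006898) encodes spinophilin, a scaffold that holds protein phosphatase 1 at actin in dendritic spines. It was at 285, 313 and 397 TPM in control WT, 759, 755 and 766 TPM in untreated P209L and 305, 360 and 334 TPM in treated P209L. The treated values lay within the range of control WT, with a log2 fold change of 0.02 (95% interval -0.22 to 0.25), and far below the untreated ones (-1.19, adjusted p = 0.00143). Ddn (15:98803782-98807925), which encodes the dendritic protein dendrin, was at 288, 321 and 484 TPM in control WT, 788, 699 and 767 TPM in untreated P209L and 366, 437 and 360 TPM in treated P209L. Its difference from control WT was 0.12 (95% interval -0.23 to 0.47) and from untreated P209L -0.96 (adjusted p = 0.0572). Shank1 (7:44308916-44360094), a master scaffold of the postsynaptic density, was at 109, 99.3 and 146 TPM in control WT, 236, 239 and 205 TPM in untreated P209L and 120, 126 and 126 TPM in treated P209L. It differed from control WT by 0.09 (95% interval -0.18 to 0.36) and fell against untreated P209L by 0.86 on the log2 scale (adjusted p = 0.0291).

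Signalling and transport genes of the 11 gave the same picture of levels. Ilrun (17:27751232-27820542), a regulator of inflammatory signalling, was at 128, 121 and 151 TPM in control WT, 259, 270 and 270 TPM in untreated P209L and 138, 137 and 142 TPM in treated P209L. Its difference from control WT was 0.06 (95% interval -0.10 to 0.23), and against untreated P209L it fell by 0.93 (adjusted p = 0.000805). Tnpo2 (8:85036873-85057585), which encodes one of the transportins, was at 61.5, 52.3 and 71.0 TPM in control WT, 98.0, 104 and 103 TPM in untreated P209L and 62.8, 60.5 and 69.8 TPM in treated P209L. It differed from control WT by 0.07 (95% interval -0.16 to 0.30) and from untreated P209L by -0.66 (adjusted p = 0.0572). Its relatives Tnpo1 and Tnpo3 differed from control WT by 0.07 and 0.05, and of the 19 nuclear import genes none had an unadjusted p under 0.05.

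Brsk1 encodes a kinase of neuronal polarity, Foxo4 a transcription factor downstream of insulin signalling, Fbxl19 a protein that binds CpG islands and Paip2b an inhibitor of the poly(A)-binding protein in translation. Their differences from control WT were 0.06 (Brsk1), -0.03 (Foxo4), 0.07 (Fbxl19) and 0.03 (Paip2b), and the highest upper bound among the 4 intervals was 0.25. Brsk1 and Foxo4 fell against untreated P209L (adjusted p = 0.0356 and 0.00675), as did Gm31166, an unnamed gene model (-1.44, adjusted p = 0.0153). Fbxl19 and Paip2b missed the threshold there (adjusted p = 0.0572 and 0.0929). Adra1b, an α1 adrenergic receptor, and Gm31166 had the widest intervals against control WT, 0.24 (-0.14 to 0.62) and 0.31 (-0.09 to 0.72). For these 2 genes a remaining rise of 1.5-fold lies inside the interval, so the data do not show that they returned to the WT level. All 11 genes lay lower in every treated than in every untreated P209L library, which 5.21% of all genes did.

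Single control WT libraries set how these 11 genes read. Control WT replicate 3 was the highest of its group in 9 of the 11, and in 29 of 30 genes of the postsynaptic density. Without it the median difference of treated P209L was 0.15, and 5 of the 11 were higher at an unadjusted p under 0.05. Of all 16517 genes tested without that library, 1359 were. Adra1b (0.43), Ddn (0.35) and Shank1 (0.25) were then farthest above control WT. Without control WT replicate 2 the median was -0.01. No alternative brought any of the 11 past the threshold (lowest adjusted p = 0.307).

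**Figure D2:**
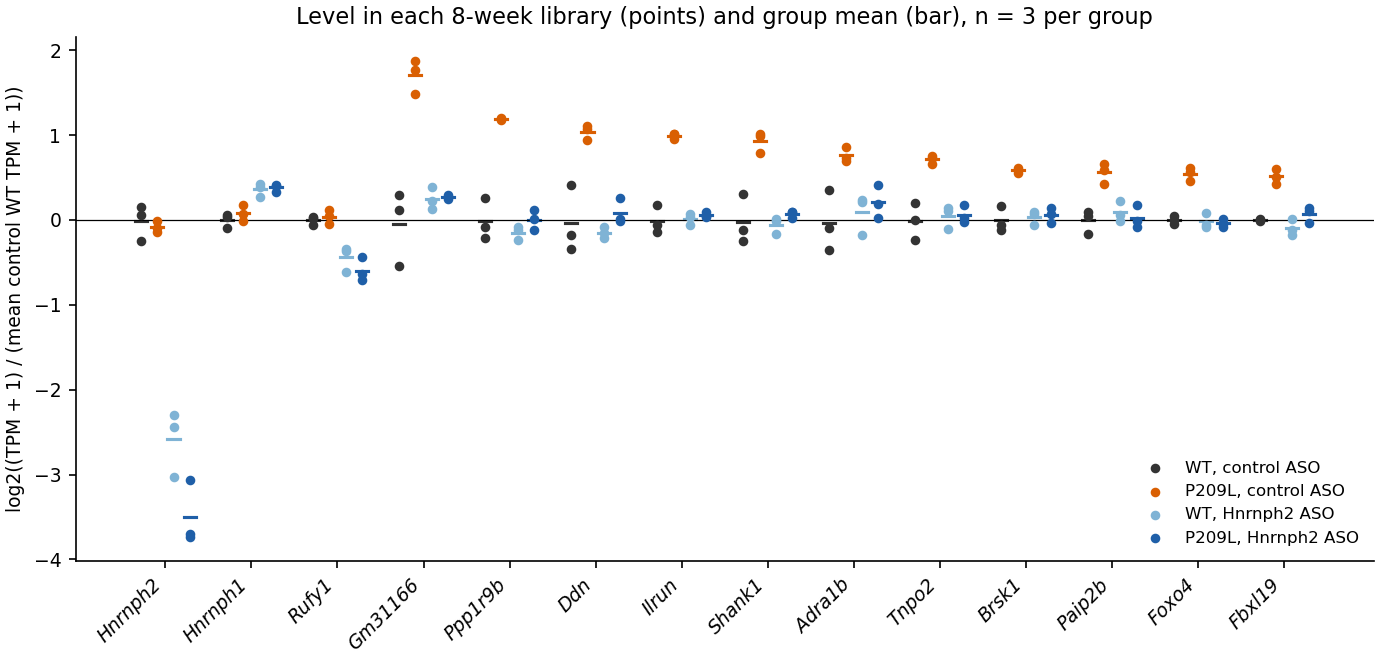
Each point is 1 library at 8 weeks, with the y axis giving its level as log2 of the ratio to the mean of control WT after 1 TPM was added to both, and bars mark group means (n = 3 per group). Hnrnph2 and Rufy1 lie low and Hnrnph1 lies high in both groups with the Hnrnph2 ASO, and the 11 genes raised in mutants at 3 weeks lie high in untreated P209L and near 0 in treated P209L.

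**Figure D3:**
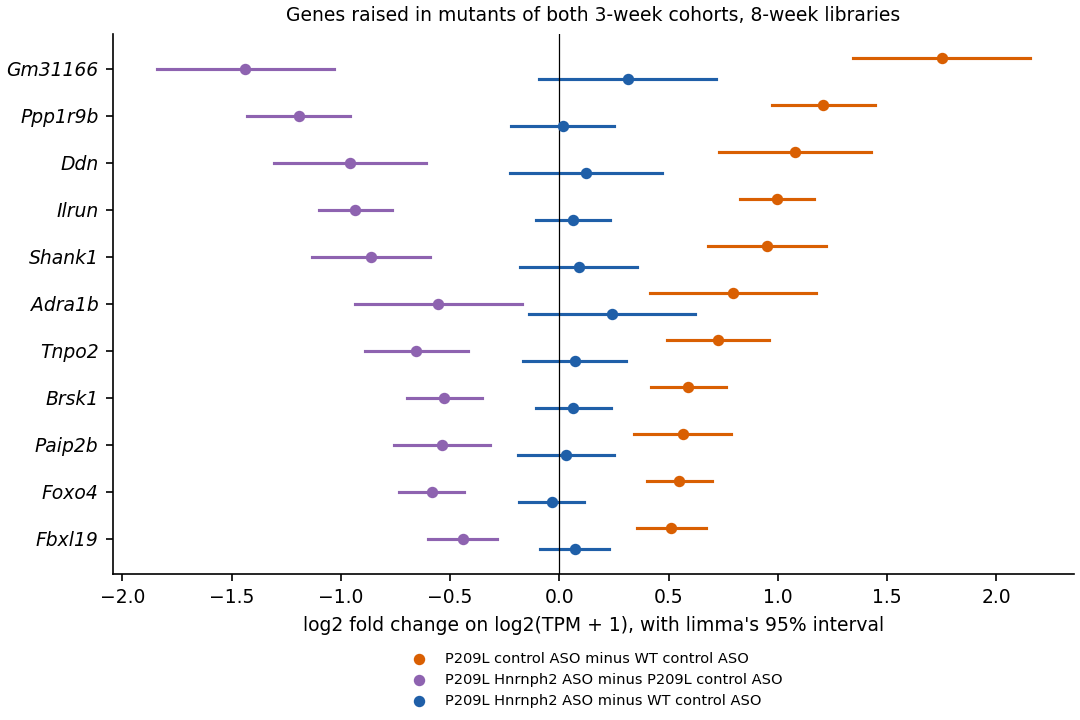
For the same 11 genes the x axis gives the log2 fold change with limma's 95% interval for untreated P209L against control WT, treated against untreated P209L, and treated P209L against control WT. All 11 intervals of treated P209L against control WT include 0, and the widest reach up to 0.72 (Gm31166) and 0.62 (Adra1b).

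The 8-week libraries themselves called 28 genes in untreated P209L, 27 higher and 1 lower, and 19 of them were not among the 11. Because these 28 were chosen with the same control WT libraries, their values in treated P209L are a description. Among the 28 the median difference of treated P209L from control WT was 0.07, against 0.53 in untreated P209L. Ppp1cb, which encodes a catalytic subunit of protein phosphatase 1, was at 136, 134 and 152 TPM in control WT, 197, 204 and 201 TPM in untreated P209L and 133, 140 and 150 TPM in treated P209L. Phactr3, a regulator of that phosphatase, was at 72.0, 68.0 and 80.4 TPM in control WT, 117, 113 and 113 TPM in untreated P209L and 72.7, 75.9 and 77.3 TPM in treated P209L. Both fell against untreated P209L (adjusted p = 0.02 and 0.00445), as did Cacng7, an auxiliary subunit of AMPA receptors (-0.37, adjusted p = 0.02), and Tab2, an adaptor of inflammatory kinases (-0.56, adjusted p = 0.0356).

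A few of the 28 lay between WT and untreated levels. Cxcl12 (6:117168535-117181368), a chemokine that guides migrating cells, was at 34.1, 31.6 and 36.01 TPM in control WT, 48.7, 48.8 and 43.8 TPM in untreated P209L and 43.9, 40.1 and 44.5 TPM in treated P209L. Its treated libraries all exceeded control WT (0.33, 95% interval 0.18 to 0.48, adjusted p = 0.305) and overlapped the untreated ones (-0.13, adjusted p = 0.894). WT mice with the Hnrnph2 ASO had 34.5, 36.8 and 36.2 TPM. Adgre5, an adhesion receptor of leukocytes and other cells, went from 7.91, 7.89 and 8.24 TPM in control WT to 10.3, 9.38 and 9.51 TPM in treated P209L, with 11.5, 10.99 and 10.6 TPM in untreated P209L. Scara3 (0.22) and the potassium channel Kcnc4 (0.16) likewise had treated libraries wholly above control WT and below the untreated ones. None of these 4 passed against control WT (adjusted p from 0.305 to 0.679), and for none of them was the difference between treated and untreated P209L called.

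Pkp4 went past the WT level in the treated mice without passing. This gene, which encodes an armadillo-family protein of cell junctions, was at 146, 142 and 145 TPM in control WT, 169, 179 and 180 TPM in untreated P209L and 135, 129 and 131 TPM in treated P209L. The fall against untreated P209L passed (-0.42, adjusted p = 0.00674), while the difference from control WT did not (-0.13, 95% interval -0.24 to -0.03, adjusted p = 0.746). Treated against untreated P209L called 15 genes in all (0.0908% of genes), 13 lower and 2 higher. The 2 that rose were Bfsp2, a filament protein of the lens (1.17, adjusted p = 0.00506), and the interferon-induced gene Ifi27 (0.54, adjusted p = 0.00297). With both genotypes on the Hnrnph2 ASO, limma called no gene between P209L and WT (0%), and 578 (3.5%) had an unadjusted p under 0.05.

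Hnrnph2 included, 966 genes had an unadjusted p under 0.05 between treated P209L and control WT (5.85%), 739 higher (4.47%) and 227 lower (1.37%), and the smallest adjusted p after that of Hnrnph2 was 0.165, that of the gene model Gm20305. The split moved with the scaling and with 1 library: median-ratio scaling gave 535 higher and 408 lower, quantile normalization 450 and 499, and leaving out control WT replicate 2 gave 698 and 376. Of all genes 64.2% lay above 0, or 51.3% with median-ratio scaling. The groups stood apart in 974 genes with treated P209L higher (5.9%) and 354 with it lower (2.14%). The median 95% interval reached 0.24 on the log2 scale to each side, and for 88.7% of genes the whole interval lay within a 1.5-fold change. A fit of all 35 libraries called 22 genes instead of 1, 14 higher and 8 lower, with Rufy1, Il33, Hnrnph1, Ttyh2, Col11a2, Cbarp, Galnt6 and Aspdh among them. A fit of the compared groups alone called 3 genes, with or without the replicate number as a block: Hnrnph2 and the unnamed gene models Gm24135 and Gm24710, which may share reads and had the same mean in treated P209L (9.55 TPM) while listed at 0 in control WT.

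Leaving aside unnamed gene models such as Gm20305, the genes nearest the threshold on the lower side were led by Rufy1. Il33 (19:29925113-29960718), an alarmin cytokine that oligodendrocytes and astrocytes make in the brain, was at 49.2, 34.9 and 44.6 TPM in control WT and at 21.5, 18.9 and 23.4 TPM in treated P209L. The groups lay well apart, with a difference of -0.97 (SE 0.173, 95% interval -1.35 to -0.59, adjusted p = 0.185). Untreated P209L was at 26.6, 32.9 and 43.2 TPM and WT with the Hnrnph2 ASO at 30.7, 38.2 and 31.3 TPM. Their means lay between those of the compared groups, and both ranges overlapped that of control WT. At 3 weeks the difference was -0.03 in treated P209L and 0.02 in treated R206W. Ttyh2, a glial membrane protein, was at 34.9, 31.9 and 29.5 TPM in control WT and 23.1, 22.7 and 24.9 TPM in treated P209L (-0.43, adjusted p = 0.185), and its 3-week differences were -0.57 (P209L) and -0.19 (R206W). Galnt6, an enzyme that starts O-linked glycans, went from 12.9, 11.7 and 11.3 TPM to 6.98, 7.52 and 7.78 TPM (-0.62, adjusted p = 0.271). Sebox (-0.40), Lyrm1 (-0.26) and A2ml1 (-0.29) completed the 8 lowest p-values among named genes, and the groups stood apart in each. Choosing by the smallest p favours such separation, here and on the higher side, so it is a description only.

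On the higher side Col11a2 (17:34038919-34066684), a fibrillar collagen chain, was at 13.6, 11.9 and 12.1 TPM in control WT and 19.9, 21.9 and 17.3 TPM in treated P209L (0.61, SE 0.0991, adjusted p = 0.182). Its 3-week differences were -0.05 (P209L) and 0.05 (R206W). Cbarp, a regulator of voltage-gated calcium channels, was at 261, 254 and 262 TPM in control WT and 314, 311 and 313 TPM in treated P209L (0.27, SE 0.0439, adjusted p = 0.182). Its 3-week differences were 0.26 and 0.31, and the 8-week value was 0.13 in untreated P209L. The β-tubulin Tubb2b went from 94.8, 105 and 102 TPM to 128, 121 and 127 TPM (0.32), and the microtubule-binding gene Eml1 from 49.2, 54.7 and 50.3 TPM to 66.2, 63.7 and 67.9 TPM (0.35), both with an adjusted p of 0.182. Both lay lower than control WT in treated R206W at 3 weeks (-0.27 and -0.21). Aspdh (0.94) and Acot1 (0.37) also stood apart, as did Hist2h2aa1 (1.38), a histone gene with a near-identical copy whose reads the counting may split.

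Interferon-induced genes lay higher in treated P209L than in control WT as a group, although none was called. These genes answer type I interferon and code for antiviral proteins and regulators. All 20 measured members had a positive difference, as 64.2% of all genes did. Of these, 13 had an unadjusted p under 0.05, against 4.47% of all genes. In 12 the groups stood apart, against 5.9% of all genes. The median was 0.33, beside 0.03 over all genes. Of 25 listed genes, 20 passed the filter of 1 TPM on average. That average took in the treated libraries, so low members could pass through the group where they were higher. Without the filter 16 members had an unadjusted p under 0.05 in either direction. Of all 34959 genes then tested, 1316 were higher and 671 lower at that threshold. The summed level of the list was 198 to 206.4 TPM in control WT, 184 to 194 TPM in untreated P209L, 217 to 223 TPM in WT with the Hnrnph2 ASO and 240 to 285 TPM in treated P209L.

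Among the members, Ifi27 was at 56.0, 53.5 and 53.5 TPM in control WT and 64.2, 66.1 and 68.2 TPM in treated P209L (0.28, SE 0.0534, adjusted p = 0.271). Oasl2, a relative of the oligoadenylate synthetases, went from 3.37, 3.46 and 4.69 TPM to 6.53, 5.93 and 8.52 TPM (0.72, SE 0.152, adjusted p = 0.297). In both genes every treated library exceeded every control WT library. Usp18, which removes ISG15 from proteins and damps interferon signalling, went from 0.96, 0.81 and 0.72 TPM to 1.98, 1.39 and 2.30 TPM (0.65, adjusted p = 0.403), and Isg15 itself from 2.69, 4.84 and 4.41 TPM to 6.58, 6.08 and 7.85 TPM (0.68, adjusted p = 0.563). Stat2, a transcription factor of the pathway, differed by less than 0.01. Treated P209L replicate 3 was the highest treated library in 16 of the 20. Without it the median was 0.25 and 10 members had an unadjusted p under 0.05.

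The 3-week cohorts, which share no library with the 8-week one, had higher medians for this list. Its median against control WT was 0.77 in treated P209L (17 of 23 members with an unadjusted p under 0.05 and higher, against 5.21% of genes) and 0.91 in treated R206W (21 of 23, against 6.36%). Each cohort was filtered on its own libraries, treated ones included. The 8-week median was thus over 20 members and those of 3 weeks over 23. The 2 treated P209L libraries of that age lay far apart, at 213 and 588 TPM summed, with 166 to 183 TPM in their control WT. Treated R206W libraries ranged from 298 to 380 TPM with 181 to 190 TPM in their control WT, and an untreated R206W library reached 405 TPM. In a fit of all 35 libraries, which takes in this spread, no member of the list had an unadjusted p under 0.05 at 8 weeks, while the median was 0.34. In WT mice at 8 weeks the Hnrnph2 ASO gave a median of 0.17 with 2 of 20 members at an unadjusted p under 0.05 and higher, against 2.06% of genes. Between treated P209L and WT with the same ASO, 4 of 20 were higher at that threshold, against 2.16% of genes.

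Genes that present antigen lay higher too. The list of MHC class I genes had a median of 0.27 with 7 of 11 members at an unadjusted p under 0.05, all higher (4.47% of all genes were). B2m, the invariant chain of MHC class I, was at 164, 159 and 154 TPM in control WT and 183, 193 and 233 TPM in treated P209L (0.34, adjusted p = 0.701). H2-K1 (0.41), whose reads may be split with those of other class I genes, was at 63.9, 57.8 and 40.0 TPM in control WT and 67.2, 68.8 and 75.9 TPM in treated P209L. In this list 10 of the 11 members were highest in treated P209L replicate 3, and without that library 1 member had an unadjusted p under 0.05 (median 0.20). Without control WT replicate 3 there were 3 (median 0.22).

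Complement genes, which microglia and astrocytes make and which tag synapses for removal during development, had a median of 0.40, with 4 of 7 measured members at an unadjusted p under 0.05, all higher (4.47% of all genes were). C4b (17:34728139-34743902) was at 15.1, 12.7 and 9.45 TPM in control WT and 19.0, 19.9 and 22.6 TPM in treated P209L. This is a difference of 0.70 (SE 0.138, 95% interval 0.40 to 1.00, adjusted p = 0.271), with every treated library above every control WT library. C1qa, a chain of the initiating complex, went from 64.6, 71.2 and 63.1 TPM to 80.5, 104 and 101 TPM (0.51), and C1qc from 49.4, 55.6 and 51.4 TPM to 61.4, 73.1 and 85.9 TPM (0.47). C1qb lay 0.40 higher, while Serping1 and C1ra lay within 0.07 of control WT. C4b also differed in the 3-week cohorts, by 1.05 (P209L) and 1.06 (R206W), without being called.

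Microglial genes were measured alongside these. Of the 15 identity genes 14 lay above 0 (64.2% of all genes did), with a median of 0.18. Of them 3 had an unadjusted p under 0.05, all higher (4.47% of all genes were). Those were Fcrls (0.69), Trem2 (0.54) and Tyrobp (0.58). P2ry12 (0.10), Tmem119 (0.11) and Cx3cr1 (0.17), of the same list, had intervals that include 0. The summed level of the identity list was 248 to 327 TPM in control WT and 285 to 392 TPM in treated P209L, so the groups overlapped. The median of the identity list was 0.09 without treated P209L replicate 3 or control WT replicate 1. Without control WT replicate 3 it was 0.34, with 6 genes higher at that threshold, as 1359 of all 16517 genes then were. Of 20 listed activation genes 14 passed the filter (median 0.30). Of these 6 had an unadjusted p under 0.05, all higher (4.47% of all genes were). Lgals3bp was among them, going from 21.9, 20.2 and 18.1 TPM to 29.9, 25.8 and 37.4 TPM (0.59). So was the lysosomal Cd68, from 11.6, 14.1 and 13.6 TPM to 16.9, 16.7 and 21.7 TPM (0.46). Without treated P209L replicate 3, 13 activation genes passed the filter, and 3 of them were higher at that threshold (median 0.18). The filter takes in treated libraries, so the set of members depended on that library. The part of microglial number in the complement and interferon values was not tested. At 3 weeks the identity list had medians of -0.09 (P209L) and 0.11 (R206W).

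Astrocyte identity genes had a median of 0.10 with 5 of 13 at an unadjusted p under 0.05, all higher (4.47% of all genes were), led by the neurotensin receptor Ntsr2 (0.29, and the 1 gene, 0.00604% of those tested, whose difference was called between 8 and 3 weeks), Sox9 (0.24) and the gap-junction gene Gja1 (0.30). Both numbers moved with single libraries: 2 genes reached the threshold without treated P209L replicate 3 (median 0.03) and 2 without control WT replicate 2 (median 0.06), while the median was 0.23 without treated P209L replicate 2. Of the 12 reactivity genes 3 reached that threshold. Gfap, the intermediate filament of reactive astrocytes, was at 164, 177 and 128 TPM in control WT and 164, 218 and 272 TPM in treated P209L (0.46, adjusted p = 0.746). Its groups overlapped, and without treated P209L replicate 3 no reactivity gene had an unadjusted p under 0.05.

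**Figure D4:**
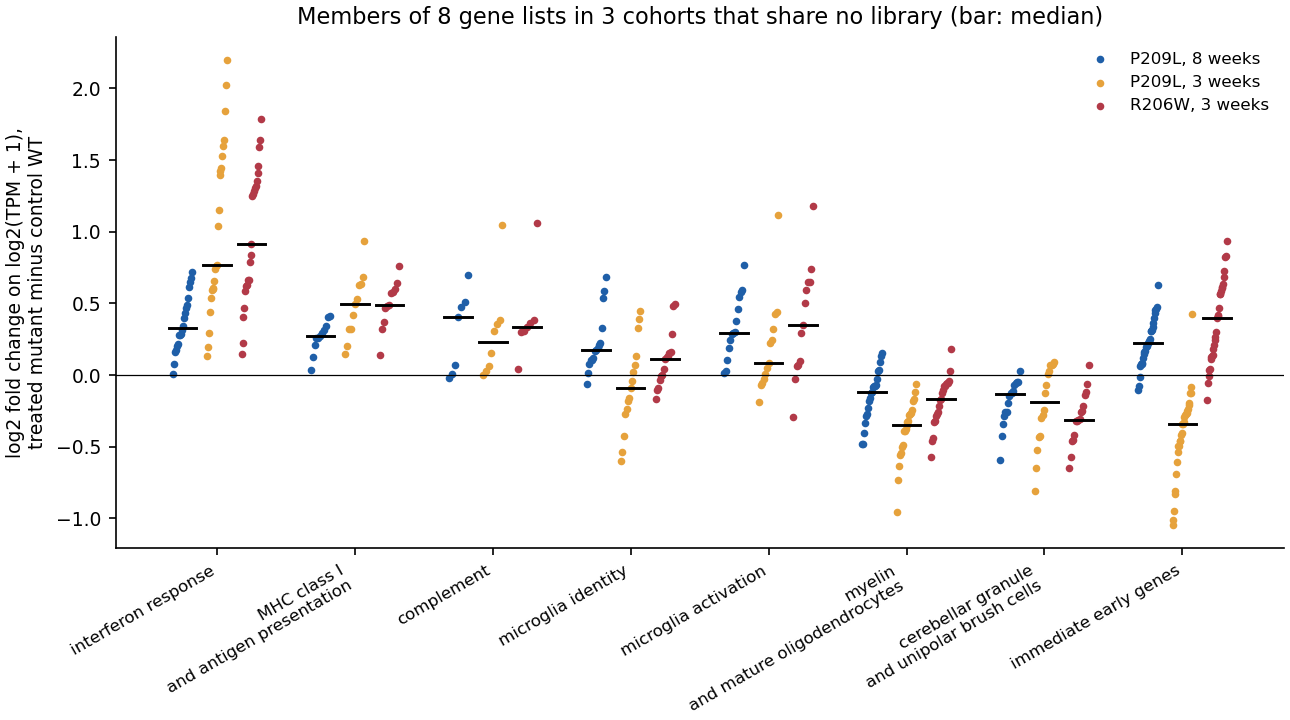
Each point is a gene of 1 of 8 lists, with the y axis giving its log2 fold change on log2(TPM + 1), treated mutant minus control WT, for treated P209L of both ages and treated R206W, and bars mark medians. The interferon list lies above 0 in all 3 cohorts (medians 0.33, 0.77 and 0.91, over 20, 23 and 23 members). The medians of the immediate early genes lie at 0.22, -0.34 and 0.40.

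Myelin genes were lower in part. Of 21 genes of mature oligodendrocytes 5 had an unadjusted p under 0.05, all lower (1.37% of all genes were), and the median was -0.12. Without control WT replicate 3 there were 9 such genes (median -0.17), and 387 of all 16517 genes were then lower. The median was -0.04 without control WT replicate 1 and -0.05 without treated P209L replicate 2. Opalin, a membrane protein of the myelin loops, was at 29.2, 25.2 and 27.3 TPM in control WT and 21.7, 18.5 and 17.5 TPM in treated P209L (-0.48, adjusted p = 0.486), with 20.8, 14.8 and 19.9 TPM in untreated P209L. Aspa, which breaks down N-acetylaspartate, went from 31.4, 28.2 and 32.8 TPM to 22.1, 22.1 and 24.8 TPM (-0.41, adjusted p = 0.425), and Mal and Cldn11 differed by -0.48 and -0.33. These 4 genes stood apart between the groups, whereas the abundant Mbp (0.03) overlapped. The summed list was 8143 to 10690 TPM in control WT and 8011 to 9353 TPM in treated P209L. Untreated P209L, set against the same control WT libraries, had a median of -0.19. There 6 of the 21 were lower at an unadjusted p under 0.05 (2.09% of all genes were). The median was 0.06 for treated against untreated P209L, and 0.02 for the Hnrnph2 ASO in WT. Treated mice of 3 weeks had medians of -0.34 (P209L, 17 of 21 lower at an unadjusted p under 0.05, against 6.75% of genes) and -0.17 (R206W, 7 of 21, against 6.22%).

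The sums of a further pair of lists differed between the groups. The 16 genes of cerebellar granule and unipolar brush cells summed to 1340 to 1357 TPM in control WT. In treated P209L they summed to 1103 to 1256 TPM. Of the 16, 15 lay below 0, while 64.2% of all genes lay above 0. An unadjusted p under 0.05 was reached by 2, both lower (1.37% of all genes were), and by none with the compared groups alone. In none of the 16 genes did the groups stand apart. Their median was -0.13, -0.28 without control WT replicate 3 and -0.07 without treated P209L replicate 2. Gabra6, the granule cell subunit of the GABA-A receptor, was at 82.0, 80.8 and 56.5 TPM in control WT and 55.1, 32.4 and 59.8 TPM in treated P209L (-0.59, adjusted p = 0.737). Mitochondrially encoded genes took 136600 to 140000 TPM in control WT and 124800 to 130700 TPM in treated P209L. Of these 13 genes 1 had an unadjusted p under 0.05, and it was lower (1.37% of all genes were). In 4 the groups stood apart with treated P209L lower (2.14% of all genes did). With the cerebellar list as a covariate the median of the interferon list was 0.40 and that of the myelin list -0.03, and the medians without mitochondrially encoded genes are among the alternatives of the closing section. The part of dissection or RNA quality in these values was not tested.

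**Figure D5:**
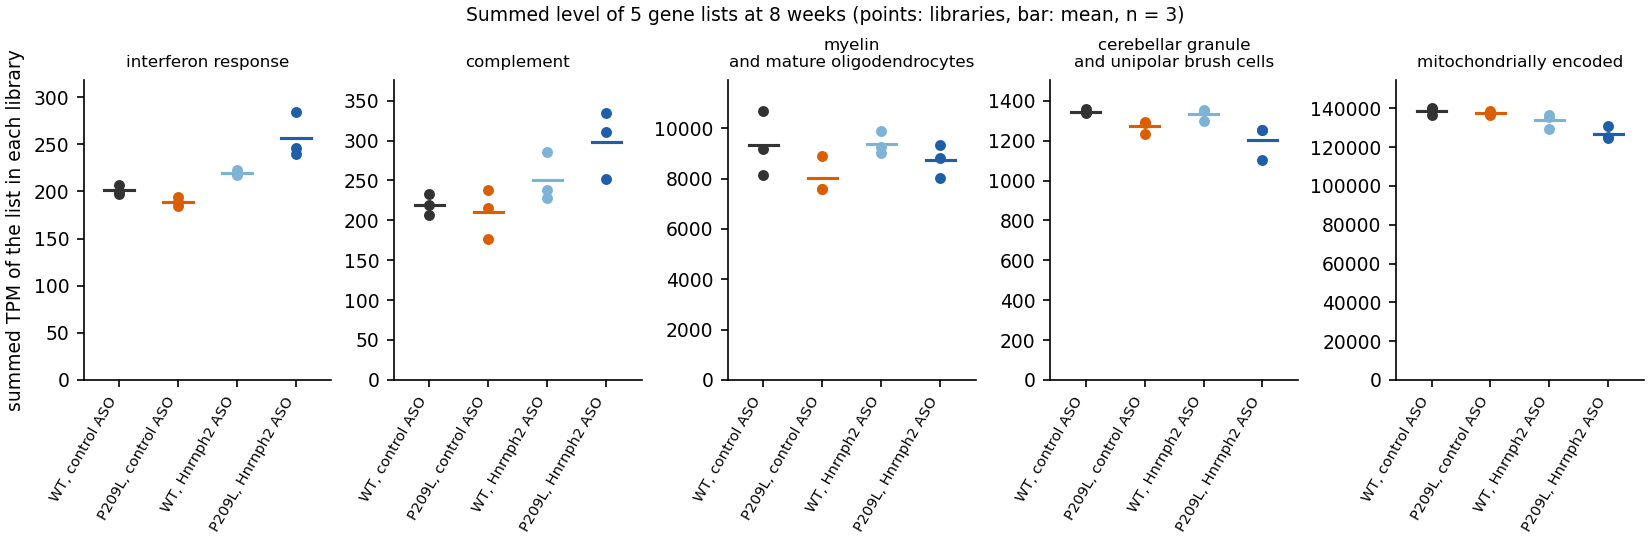
Each point is the summed TPM of a gene list (y axis, from 0) in 1 library at 8 weeks and bars mark group means (n = 3 per group). The interferon list reaches 240 to 285 TPM in treated P209L and 198 to 206.4 TPM in control WT. The group means of the cerebellar and mitochondrially encoded lists are lowest in treated P209L. Its points overlap those of untreated P209L (cerebellar) and of WT with the Hnrnph2 ASO (mitochondrially encoded).

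Immediate early genes, which neurons transcribe within minutes of activity, were high in treated P209L relative to untreated P209L. Of 29 members 25 were higher than in untreated P209L at an unadjusted p under 0.05 (4% of all genes were), with a median of 0.77. Untreated P209L was itself lower in part: 16 of the 29 were lower there than in control WT at that threshold (2.09% of all genes were). The median was -0.55. The summed list was 506.4 to 794.6 TPM in untreated P209L and 788 to 1136 TPM in control WT, so these groups overlapped. No member was called in these comparisons, and no untreated library was left out for this list. Against control WT 1 member was higher in treated P209L, and the median of 0.22 became 0.09 without control WT replicate 3. Fos was at 57.8, 61.8 and 22.5 TPM in control WT, 4.52, 23.01 and 26.9 TPM in untreated P209L and 76.5, 53.6 and 52.6 TPM in treated P209L. Arc, a regulator of synaptic strength, was at 115, 123 and 72.8 TPM in control WT, 22.6, 67.2 and 85.4 TPM in untreated P209L and 133, 138 and 121 TPM in treated P209L. The control WT and treated ranges of Fos overlapped, and its difference of 0.46 had a 95% interval of -0.75 to 1.67. The list differed from control WT in opposite directions in treated P209L (-0.34) and treated R206W (0.40) mice of 3 weeks.

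The lists of neuronal and housekeeping functions had few or no members at an unadjusted p under 0.05, and for the synaptic and striatal ones this rested on 1 library. With all libraries none of 30 postsynaptic density genes, 24 presynaptic genes, 14 striatal projection neuron genes or 15 interneuron genes had an unadjusted p under 0.05, and their medians were 0.03, 0.06, 0.04 and -0.004. Without control WT replicate 3, 13 postsynaptic, 9 presynaptic and 4 striatal genes were higher at that threshold, with medians of 0.20, 0.16 and 0.22. Of all 16517 genes 1359 were then higher and 387 lower. Of 24 ion channel genes 1 was lower (1.37% of all genes were), and of 32 cytosolic ribosomal protein genes 1 was higher (4.47% were). Without control WT replicate 3, 6 ion channel genes were at that threshold. Without control WT replicate 2, 4 ribosomal ones were, and of all 16546 genes 698 were then higher and 376 lower. Heat shock genes (median 0.02) and genes of the integrated stress and unfolded protein response (11 of 24 above 0, 64.2% over all genes) had 1 and 2 members at that threshold. Over all genes 5.85% were, in either direction. The signs of these 8 medians changed with the scaling or the library left out, so none is given a direction. Among 25 other hnRNP and FET proteins 1, Taf15, reached an unadjusted p under 0.05, and it was lower (1.37% of all genes were). It was at 50.4, 49.1 and 48.4 TPM in control WT and 44.6, 43.1 and 34.1 TPM in treated P209L (-0.28, adjusted p = 0.722). Untreated P209L, at 43.0, 40.8 and 38.1 TPM, and WT with the Hnrnph2 ASO, at 38.6, 32.5 and 35.3 TPM, were also below control WT.

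The unnamed gene model Gm20305 was at 3.28, 3.51 and 7.42 TPM in control WT, listed at 0 in all libraries of untreated P209L and of WT with the Hnrnph2 ASO, and at 0, 1.04 and 0 TPM in treated P209L (-2.11, adjusted p = 0.165). It was the 1 lower gene of the 28 called in untreated P209L. With the cerebellar list as a covariate, and without treated P209L replicate 2, it was called against treated P209L too.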

How the data were processed

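RNA-seq values came from 1 table of TPM that the authors deposited, with 55573 gene rows, 2 decimals and all 35 columns assigned to a sample. Per the submitters' processing notes, the tools included STAR 2.7.1a and RSEM, beside GATK 4.0.4.0 and Trim Galore, and the build was mm10. The annotation and the strand setting are not given in the sources used here. Since TPM values do not preserve read totals, depth is unknown and counting error cannot be given. Rows sharing a symbol (237) were kept apart. Coordinates came from RefSeq (GRCm38.p6, the same build), in which 38416 of 55453 symbols were found.

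A gene was tested when the 12 libraries of 8 weeks averaged 1 TPM or more. Treated libraries entered that average, so low genes of any list could pass through a group where they were high. limma 3.58.1 (R 4.3.3) was run on log2(TPM + 1), with 1 mean per group, a variance trend and Benjamini-Hochberg adjustment over all genes of a contrast, and genes were called under 0.05. Every p in the text is limma's and two-sided unless a permutation test is named. Differences between ages used a fit of all 35 libraries. The 3-week WT libraries were assigned to cohorts by the name codes in their titles. Each library has a code of its own, but the labels do not state what the codes stand for, so p-values measure the spread between these libraries, which may be technical. Library pairs correlated at 0.973 to 0.989 and none was identical.

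Same-numbered replicates of the compared groups deviated together (correlations of 0.125, 0.225 and 0.226 over genes), so a fit with the number as a block was also made. Alternatives were a pseudocount of 0.1, other filters and scalings, other sets of libraries, each library left out and a cerebellar covariate. The named genes are the family, the 8 named genes with the smallest p in each direction, genes called in both 3-week mutation contrasts, and up to 4 members of each list by p. Others, among them the genes called at 8 weeks in the contrasts beside the main one, and Pcp2, Ttr, Fos, Arc, Isg15, Stat2 and similar list members, were picked after their values were seen. Some genes are not reported here. The members, lists and rules were chosen with earlier results of these data known. The fit was tested on simulated data.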

Additional observations from a re-analysis of the deposited data

Results flagged for a closer look

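The difference of treated P209L from control WT itself differed between 8 and 3 weeks in 1 gene, Ntsr2, by a test of that difference over all 35 libraries (0.60 on the log2 scale, limma adjusted p = 0.0417; 0.00604% of genes were called). Ntsr2 encodes a neurotensin receptor of astrocytes. At 8 weeks it was at 142, 134 and 122 TPM in control WT and 164, 162 and 162 TPM in treated P209L (0.29), and at 3 weeks the difference was -0.31 with 2 treated libraries. The adjusted p was 0.214 with median-ratio scaling and 0.0516 with the replicate block. Leaving out single libraries gave 0.00602 to 0.243, with the highest value without treated P209L replicate 2 of 3 weeks.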

How the results depend on the processing

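Hnrnph2 was called under every alternative tried, with a mean difference of -96.2 TPM. The number of genes called between treated P209L and control WT was 1, and became 5 with no filter, 3 with the compared groups alone, 3 with the replicate block in those groups, 22 with all 35 libraries and 2 with the cerebellar covariate. Leaving out single libraries gave 1 to 4. The replicate block in the fit of the cohort left it at 1 and gave 21 for treated against untreated P209L, where the count was 15, 30 with median-ratio scaling and 8 to 12 with a library left out. For P209L against WT under the Hnrnph2 ASO it was 0, 2 with no filter and 0 to 2 with a library left out. The difference from 3 weeks called 1 gene, 5 with no filter, 0 with median-ratio scaling, 0 with the replicate block and 0 to 234 with a library left out, the 234 without treated P209L replicate 1 of 3 weeks. The difference from R206W called 0, 1 with a pseudocount of 0.1, 1 with median-ratio scaling and 0 to 1 with a library left out. Causes were not tested. The median over all genes was 0.03, 0.003 with median-ratio scaling, -0.006 with quantile normalization and 0.02 without mitochondrially encoded genes. The medians of the interferon (0.25 to 0.41), MHC class I (0.20 to 0.33), complement (0.21 to 0.55) and myelin (-0.17 to -0.03) lists kept their sign under all alternatives. With 3 libraries a group and unknown depth, small differences of low genes were not detectable. Larger differences of more abundant genes could also go uncalled, as for Il33, Rufy1 and Hnrnph1, whose groups stood apart. That 1 gene was called therefore does not show that the others were at the WT level.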

Other observations

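Genes of brain endothelium and of cholesterol synthesis were not described above. Of 15 endothelial genes 3 lay higher in treated P209L than in control WT at an unadjusted p under 0.05 (4.47% of all genes did), with a median of 0.10. The junction gene Cldn5 was at 32.9, 45.6 and 48.7 TPM in control WT and 56.9, 55.6 and 54.1 TPM in treated P209L (0.40, limma adjusted p = 0.785), and Esam at 15.3, 13.8 and 15.4 TPM and 17.4, 17.1 and 17.6 TPM (0.22, adjusted p = 0.573). Of 20 cholesterol synthesis genes 3 were higher at that threshold (median 0.09), among them Mvd (0.20). With single libraries left out the numbers higher at that threshold ran from 1 to 5 (endothelium, 5 without control WT replicate 3) and from 1 to 4 (cholesterol synthesis, 1 without treated P209L replicate 3). Of 14 genes of oligodendrocyte precursors 1 was, Gpr17, a receptor of cells about to differentiate, at 25.0, 20.9 and 25.8 TPM in control WT and 29.8, 26.4 and 35.4 TPM in treated P209L (0.34, adjusted p = 0.614). Lyz2, a gene of macrophages and neutrophils, was at 17.8, 17.2 and 15.2 TPM in control WT and 23.8, 29.5 and 35.2 TPM in treated P209L (0.77, adjusted p = 0.765), while the other 10 measured blood cell genes had an unadjusted p of at least 0.05. None of these genes was called.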
